A study of Bos taurus with 33 samples.

Results

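A set of 10 genes of lipid storage and fatty-acid use was followed through every pool of bovine oocytes and cumulus cells (CC), the somatic cells that surround the oocyte. The members were PLIN2 (ENSBTAG00000005718), PLIN3 (ENSBTAG00000011805), CPT1A (ENSBTAG00000021999), CPT2 (ENSBTAG00000014649), FABP3 (ENSBTAG00000016819), FABP5 (ENSBTAG00000047330), CD36 (ENSBTAG00000017866), DGAT1 (ENSBTAG00000026356), ACSL3 (ENSBTAG00000017258) and PNPLA2 (ENSBTAG00000005144). They were chosen by name, and all 10 were found among the 17543 genes listed for either cell type. CD36 carried no symbol in the CC table and was joined there by its Ensembl identifier.

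Lipid droplets are stores of triglyceride wrapped in a protein coat, and bovine oocytes are known for being rich in them. Fatty acids are taken up and carried by transporters and binding proteins, activated to acyl-CoA, and either esterified to triglyceride or moved into mitochondria by the carnitine shuttle for beta-oxidation. Triglyceride is released again by lipases at the droplet surface. Cumulus cells supply the oocyte with nutrients through processes that reach its membrane.

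Each library was made from the pooled oocytes of 4 cumulus-oocyte complexes, or from the CC of 4 complexes, aspirated from suckled postpartum beef cows (Hereford-Angus crosses). All cows were synchronized with GnRH on day -9 and prostaglandin F2α on day -2. In the small group the largest follicle measured at most 11.7 mm and in the large group at least 12.7 mm, and cows of both groups showed no estrus and received a second GnRH injection on day 0 to induce the gonadotropin surge. Cows of the spontaneous group showed estrus, had follicles of 11.7 to 14.0 mm and were not given the second GnRH, so the spontaneous group differed from the others in both estrus and injection. Complexes were collected about 23 h after GnRH or estrus by the treatment protocol, and about 20 h by the developmental stage label. There were 6 small, 6 large and 4 spontaneous oocyte pools, and 6 small, 6 large and 5 spontaneous CC pools. Because a pool mixes several cows, p-values measure the spread between pools and not between animals.

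Values are CPM, counts scaled to the reads on genes of each pool. Reads on genes numbered 7664375 to 17934916 in an oocyte pool, against 1911600 to 5772431 in a CC pool, so a transcript without a read could still have had 0.167 to 0.391 CPM in oocytes and 0.52 to 1.57 CPM in CC, the worth of 3 reads. These limits cover counting error only, since the cDNA was amplified. Oocyte markers summed to 8822 to 12823 CPM in the oocyte pools, whereas in CC they summed to 1.57 to 13.7 CPM. Cumulus and granulosa cell markers summed to 4092 to 11806 CPM in CC, whereas in the oocyte pools they summed to 217 to 927 CPM. In bulk RNA, fewer cells of a type and less RNA per cell cannot be told apart.

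The first question was in which of the cell types each member was found. The oocyte and CC tables were normalized separately, so levels set across them are described and were not tested. ACSL3 and FABP5 were higher in every oocyte pool than in any CC pool, and PLIN3 was higher in every CC pool than in any oocyte pool. The ranges of the other 7 members over all pools overlapped between the cell types. The CC pools came from the same complexes as the oocyte pools, although the labels do not say that a shared number marks the same complexes. Between small and large pools of the same class and number, FABP3 was higher in the oocyte pool in 12 of 12 and CD36 higher in the CC pool in 12 of 12. Of the other overlapping members, CPT2 and PNPLA2 were higher in CC in 11 of 12 each, PLIN2 in 9, CPT1A in 8 and DGAT1 in 6. The 2 members without overlap on the oocyte side and the 1 on the CC side compare with 22.9% of all 11431 transcripts higher in every oocyte pool and 13.4% higher in every CC pool, shares close to those of the members (20% and 10%).

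**Figure D1:**
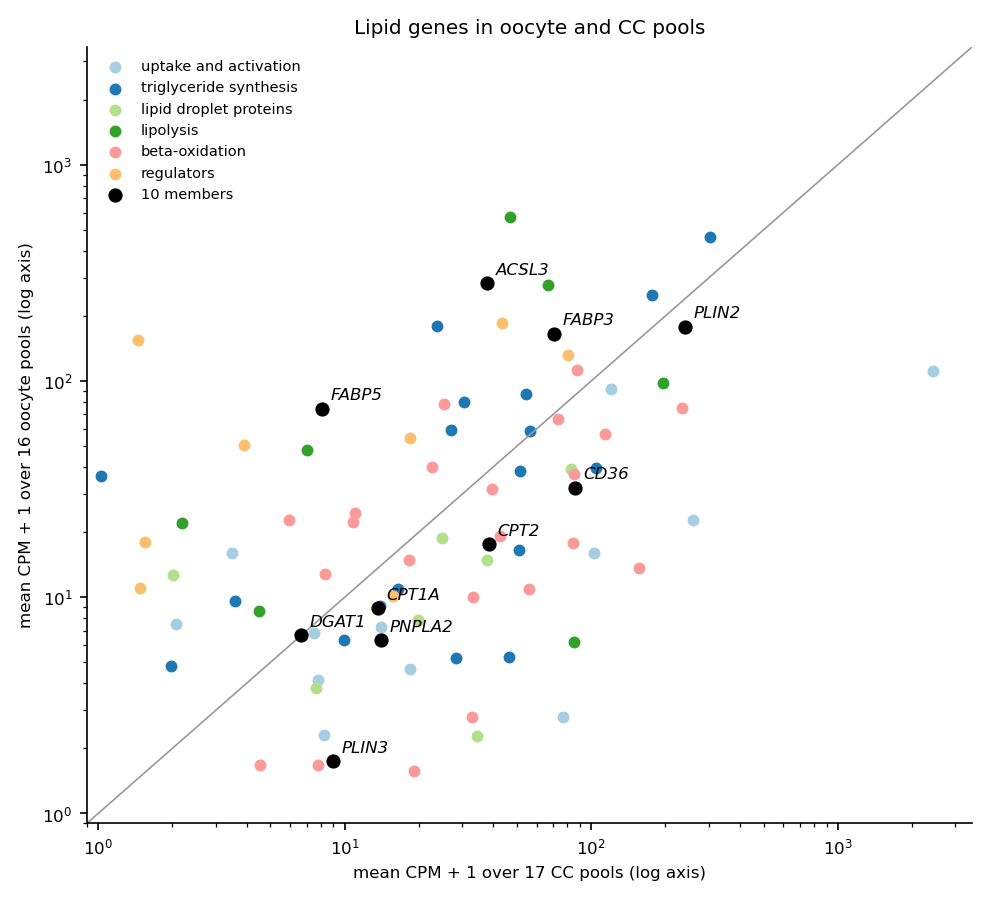
Mean CPM + 1 of the 10 members (black, named) and of 74 other lipid genes (coloured by list) over 17 CC pools on the horizontal axis and 16 oocyte pools on the vertical axis, both logarithmic. Points above the line of equal level have the higher mean in oocytes, as ACSL3, FABP3 and FABP5 do among the members.

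ACSL3, an acyl-CoA synthetase that activates long-chain fatty acids at the endoplasmic reticulum and on nascent lipid droplets, had a mean of 282 ± 42.5 CPM (SD, n = 16) in oocytes and 36.8 ± 11.8 CPM (SD, n = 17) in CC. Its lowest oocyte pool stood at 237 CPM and its highest CC pool at 66.3 CPM. The mean was 8.91-fold higher in oocytes in the small group, 7.57-fold in the large group and 6.50-fold in the spontaneous group. It was also the steadiest member among oocyte pools, with a coefficient of variation of 15.1% where counting error alone gives 1.68%.

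Fatty-acid binding proteins carry fatty acids through the cytosol. FABP5, the epidermal form, had 73.4 ± 17.9 CPM (SD, n = 16) in oocytes, with pools from 45.5 to 107 CPM, against 7.10 ± 9.86 CPM (SD, n = 17) in CC. The CC spread came from 1 pool: the spontaneous CC pools held 2.51, 43.5, 4.54, 3.99 and 2.65 CPM, and the other 16 CC pools stayed at or below 10.8 CPM. Without spontaneous replicate 2, the CC mean was 4.83 ± 3.13 CPM (SD, n = 16), and the oocyte mean was 15.2-fold higher in place of 10.3-fold.

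That same CC pool had the highest summed white blood cell markers of all CC pools, 356 CPM against 42.7 to 247 CPM in the others, and 4 of the 9 markers were highest in it. Its endothelial markers summed to 60.3 CPM (second of 17 pools) and its oocyte markers to 2.93 CPM, inside the range of the others. The part of other cell types in its FABP5 level was not tested.

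FABP3, the heart-type binding protein, had 164 ± 40.5 CPM (SD, n = 16) in oocytes and 69.6 ± 28.1 CPM (SD, n = 17) in CC. The oocyte mean was 2.66-fold higher in the small, 1.82-fold in the large and 2.8-fold in the spontaneous group. Only in the spontaneous group did the pools separate fully. The small CC pools overlapped because replicate 3 held 150 CPM, whereas the other 5 ranged from 26.7 to 76.9 CPM. That replicate had the fewest reads on genes and the lowest sum of cumulus and granulosa cell markers (4092 CPM), and its white blood cell markers summed to 242 CPM, the third highest of 17 CC pools.

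CD36, a membrane receptor that takes up long-chain fatty acids and lipoproteins, had 31.1 ± 16.4 CPM (SD, n = 16) in oocytes and 85.0 ± 36.6 CPM (SD, n = 17) in CC. Its oocyte level was 36.5% of its CC level. Over the 10 cumulus and granulosa cell markers the same share ran from 1.36% for PTX3 to 255% for HAS2. It was under 10% for FSHR, INHA, INHBA, FST, PTX3, TNFAIP6 and PTGS2 (8.62%), 12% for AMH and 23.2% for CYP19A1, so HAS2 was the one marker above CD36.

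Perilipins coat lipid droplets. PLIN2, the common coat protein of non-adipose cells, was abundant in both cell types, with 177 ± 42.0 CPM (SD, n = 16) in oocytes and 240 ± 75.7 CPM (SD, n = 17) in CC. PLIN3, a perilipin that moves to droplets from the cytosol, had 7.97 ± 2.19 CPM (SD, n = 17) in CC and 0.752 ± 1.20 CPM (SD, n = 16) in oocytes. In oocytes it had no read in 7 of 16 pools and reached at most 3.65 CPM, below the lowest CC pool at 3.84 CPM, so the gap between the cell types at that point was narrow.

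The members of the carnitine shuttle and the enzymes at either end of triglyceride turnover had higher mean levels in CC, apart from DGAT1, whose means were nearly equal. CPT2, the inner-membrane carnitine palmitoyltransferase, had 16.7 ± 9.04 CPM (SD, n = 16) in oocytes and 37.5 ± 8.58 CPM (SD, n = 17) in CC. CPT1A, the outer-membrane enzyme that controls fatty-acid entry into mitochondria, had 7.89 ± 6.77 and 12.7 ± 6.49 CPM.

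PNPLA2, the adipose triglyceride lipase, had 5.31 ± 4.35 CPM in oocytes and 13.1 ± 5.99 CPM in CC. DGAT1, which adds the last acyl chain in triglyceride synthesis, had 5.66 ± 4.55 and 5.68 ± 2.07 CPM. Low-level members were widely scattered in oocytes. Among those tested, the coefficients of variation were 85.8% for CPT1A, 81.8% for PNPLA2 and 80.4% for DGAT1, with 10.1%, 12.3% and 11.9% expected from counting alone.

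**Figure D2:**
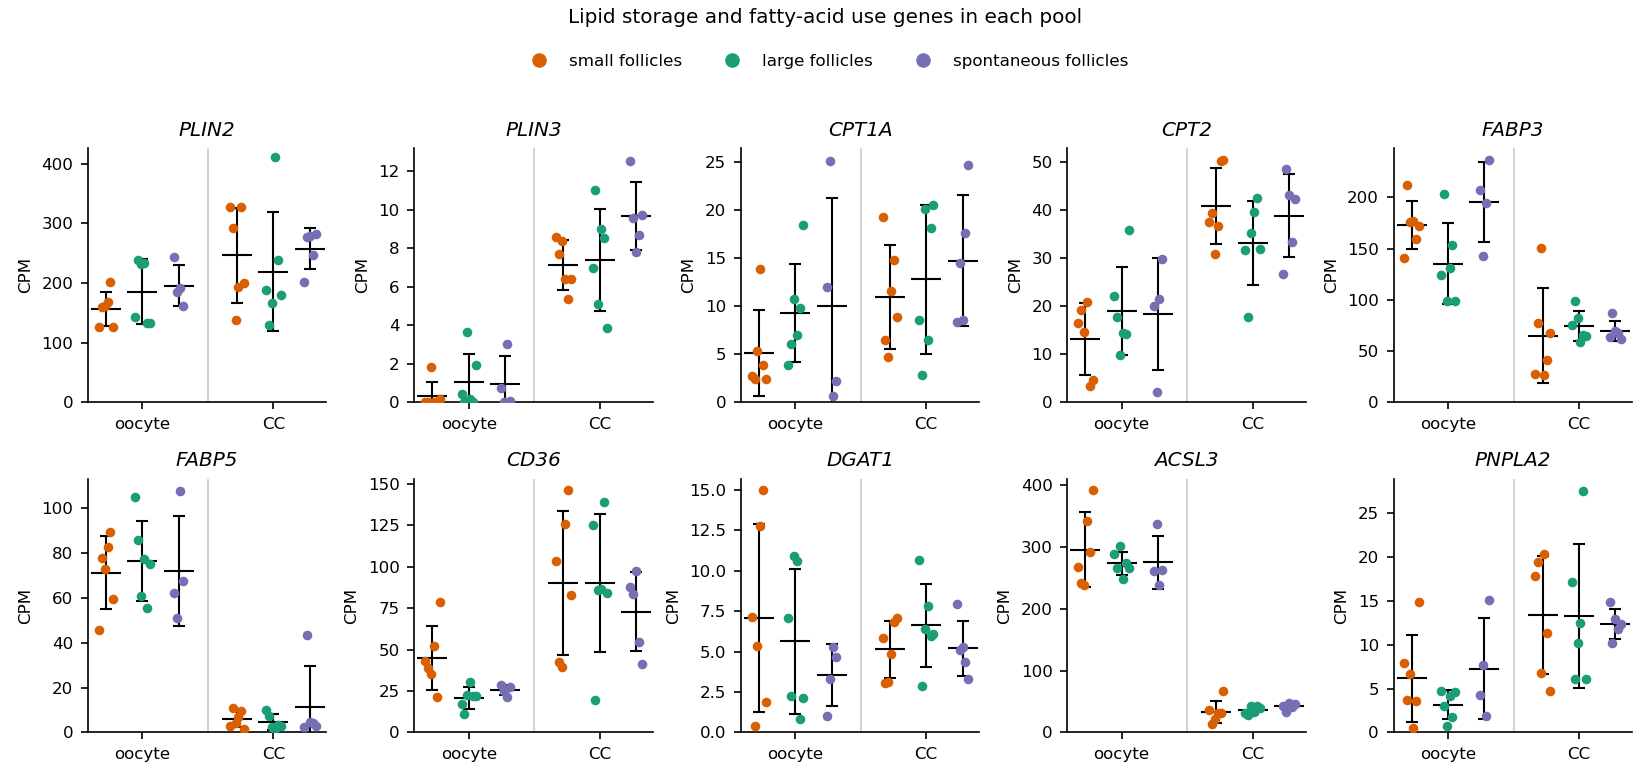
CPM (vertical axis, linear from 0, own scale in each panel) of the 10 members in every pool, with oocyte pools left and CC pools right of the grey line. Each point is 1 pool, coloured by follicle class, the long tick is the class mean and the bar its SD, cut off at 0. ACSL3 and FABP5 separate upward in oocytes and PLIN3 in CC, and spontaneous CC replicate 2 stands alone in FABP5.

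The second question was whether follicle size or a spontaneous surge went with the level of these transcripts in oocytes. Log2(CPM + 1) was compared with limma in a two-sided test, and a transcript was called at a nominal p of 0.01 or less, the cutoff that the study applied to its own tests. In comparisons with small oocyte pools the call also had to hold without small replicate 3. Each log2 fold change takes the first-named class away from the second and understates changes at low CPM. PLIN3 was too low to be tested in oocytes, which left 9 members.

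No member was called in oocytes. The shares of all 10076 transcripts called were 0.655% between small and large, 0.774% between small and spontaneous and 0.943% between large and spontaneous, so 0 of 9 did not stand apart from the background. At an unadjusted limma p under 0.05 there was 1 member (CD36) from small to large, 0 between small and spontaneous and 1 (FABP3) between large and spontaneous. edgeR and DESeq2 on the recovered reads called 1 member from small to large, CD36, and 0 in the other oocyte comparisons. The median log2 fold change of the tested members was -0.09, 0.16 and -0.003 in these comparisons, beside 0.05, 0.05 and 0.01 over all transcripts.

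CD36 in small oocyte pools ranged from 21.4 to 78.5 CPM with a median of 41.2, and in large pools from 11 to 30.6 CPM with a median of 21.8. The spontaneous pools held 28.5, 25.0, 21.6 and 27.5 CPM. Small replicate 5, at 21.4 CPM, was the one small pool inside the large range, and the other 5 small pools were above every large pool.

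The mean of CD36 was 44.9 ± 19.3 CPM (SD, n = 6) in small and 20.8 ± 6.52 CPM (SD, n = 6) in large pools. The log2 fold change was -1.03 (SE 0.365, 95% interval -1.78 to -0.29), with a limma p of 0.0084 and an adjusted p of 0.997. Without small replicate 3 the limma p was 0.011, which is why CD36 was not called. The exact permutation test of the means, two-sided, gave p = 0.011, where 0.0022 is the smallest that 6 against 6 pools allow.

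The CD36 call depended on the test and on single pools. CD36 was called by edgeR with a log2 fold change of -1.15 (quasi-likelihood, adjusted p = 0.998) and by DESeq2 with -1.16 (adjusted p = 0.407). It also met the threshold in limma when small replicate 5 (-1.22) or large replicate 4 (-1.15) was left out. Over all alternatives its log2 fold change stayed between -1.22 and -0.85 and its adjusted p was 0.407 or above. From small to spontaneous oocytes the difference of CD36 was -0.69 (limma p = 0.098, adjusted p = 0.987), with p = 0.048 in the exact permutation test.

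Markers of other cell types were read in the same pools. The cumulus and granulosa cell markers summed to 400 to 636 CPM (median 437) in small, 217 to 927 CPM (median 416) in large and 388 to 610 CPM (median 454) in spontaneous oocyte pools. HAS2 (median 186 CPM) and PTGS2 (median 152 CPM) made up most of that sum, and HAS2 was higher in oocytes than in CC. Without both, a choice made after seeing the values, the other 8 summed to 22.7 to 303 CPM (median 64.5) in small, 17.9 to 398 CPM (median 73.7) in large and 57.3 to 243 CPM (median 126) in spontaneous pools. White blood cell markers summed to 165 to 284 CPM (median 192) in small and 132 to 202 CPM (median 169) in large pools, but almost all of this was CSF1R (median 172 CPM in oocytes and 12.6 CPM in CC). LCP1 also had reads in every oocyte pool, at 1.39 to 33.9 CPM (median 9.95, against 8.20 CPM in CC). CORO1A had no read in any oocyte pool, and PTPRC, CD53, TYROBP, CD14, CD74 and LAPTM5 had none in 10 to 15 of 16. Without CSF1R the other 8 summed to 1.39 to 30.0 CPM (median 15.5) in small and 6.15 to 33.6 CPM (median 9.72) in large pools. Endothelial markers summed to 109 to 172 CPM in small and 111 to 166 CPM in large pools. TEK (median 82.4 CPM), KDR (25.3 CPM), TIE1 (10.8 CPM) and VWF (9.91 CPM) had reads in every oocyte pool. PECAM1 had no read in 12 and ESAM in 15 of 16 oocyte pools. Adipocyte markers reached at most 3.49 CPM in any oocyte pool. The part of these cell types in the CD36 levels was not tested.

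**Figure D3:**
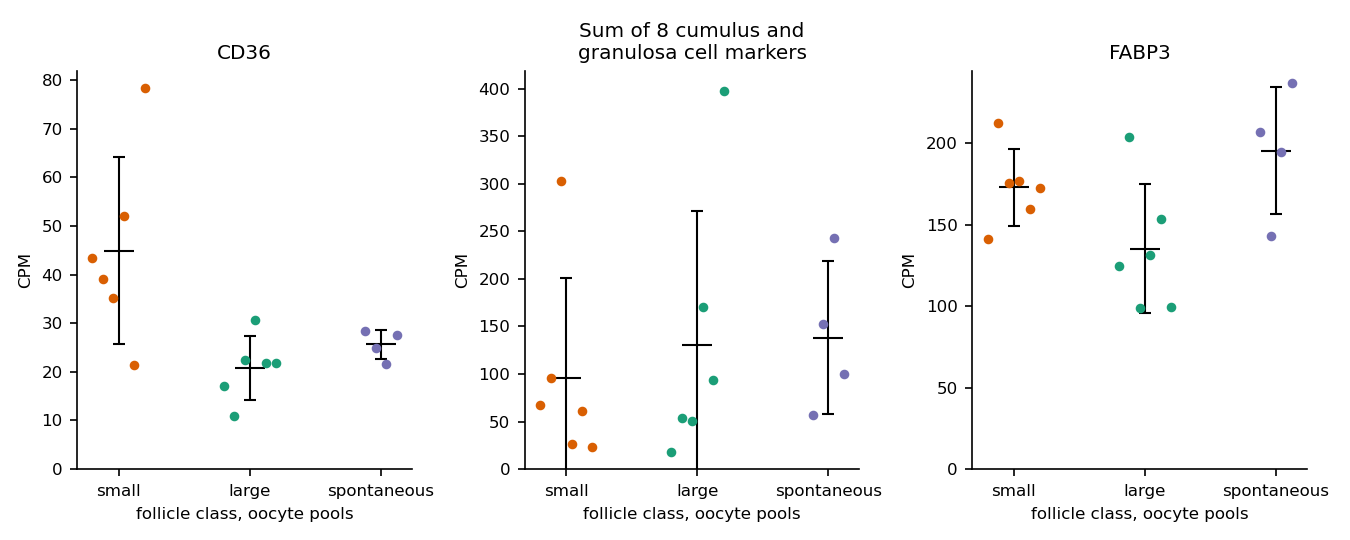
CPM in oocyte pools (vertical axes, linear from 0) of CD36, of the sum of 8 cumulus and granulosa cell markers (without HAS2 and PTGS2), and of FABP3, by follicle class. Points are pools, ticks are class means and bars their SD, cut off at 0. CD36 has a mean of 44.9 CPM in small and 20.8 CPM in large pools, and the mean marker sums are 96.2 and 131 CPM.

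FABP3 in large oocyte pools ranged from 98.6 to 204 CPM with a median of 128, and the spontaneous pools held 207, 143, 194 and 237 CPM. Small pools ranged from 141 to 212 CPM with a median of 174. Large replicate 2, at 204 CPM, and spontaneous replicate 2, at 143 CPM, were the pools that made the classes overlap most.

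From large to spontaneous oocytes the log2 fold change of FABP3 was 0.55 (SE 0.223, 95% interval 0.09 to 1.01), with a limma p of 0.020 and an adjusted p of 0.968, and the exact permutation p was 0.057. It met the threshold without large replicate 2 (0.68) or without spontaneous replicate 2 (0.69). From small to large it was -0.39 (exact permutation p = 0.078, limma adjusted p = 0.997), and from small to spontaneous 0.16 (exact permutation p = 0.286).

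Among the remaining members, the intervals show how large a difference the oocyte pools could have hidden. ACSL3 differed by -0.09 (95% interval -0.39 to 0.22) from small to large, -0.09 (-0.47 to 0.29) from small to spontaneous, and by -0.003 (-0.33 to 0.32) from large to spontaneous. PLIN2 differed by 0.21 (-0.19 to 0.61), 0.32 (-0.12 to 0.75) and 0.11 (-0.33 to 0.55), and FABP5 by 0.10 (-0.39 to 0.60), -0.01 (-0.62 to 0.61) and -0.11 (-0.68 to 0.46). For these abundant transcripts the intervals lay within 1 log2 unit of 0, whereas they were much wider for the scattered ones.

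CPT1A differed by 0.85 (95% interval -0.34 to 2.03) from small to large oocytes. Its small pools ranged from 2.41 to 13.9 CPM with a median of 3.25, its large pools from 3.86 to 18.4 CPM with a median of 8.37, and its spontaneous pools held 12.0, 25.1, 0.607 and 2.17 CPM. The classes overlapped broadly, and small replicate 4 at 13.9 CPM stood far above the other 5 small pools, which reached 5.35 CPM.

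CPT2 differed by 0.63 (-0.40 to 1.66), DGAT1 by -0.19 (-1.60 to 1.23) and PNPLA2 by -0.58 (-1.90 to 0.75) from small to large oocytes. The unadjusted limma p was at least 0.14 in every oocyte comparison of PLIN2, CPT1A, CPT2, FABP5, DGAT1, ACSL3 and PNPLA2.

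**Figure D4:**
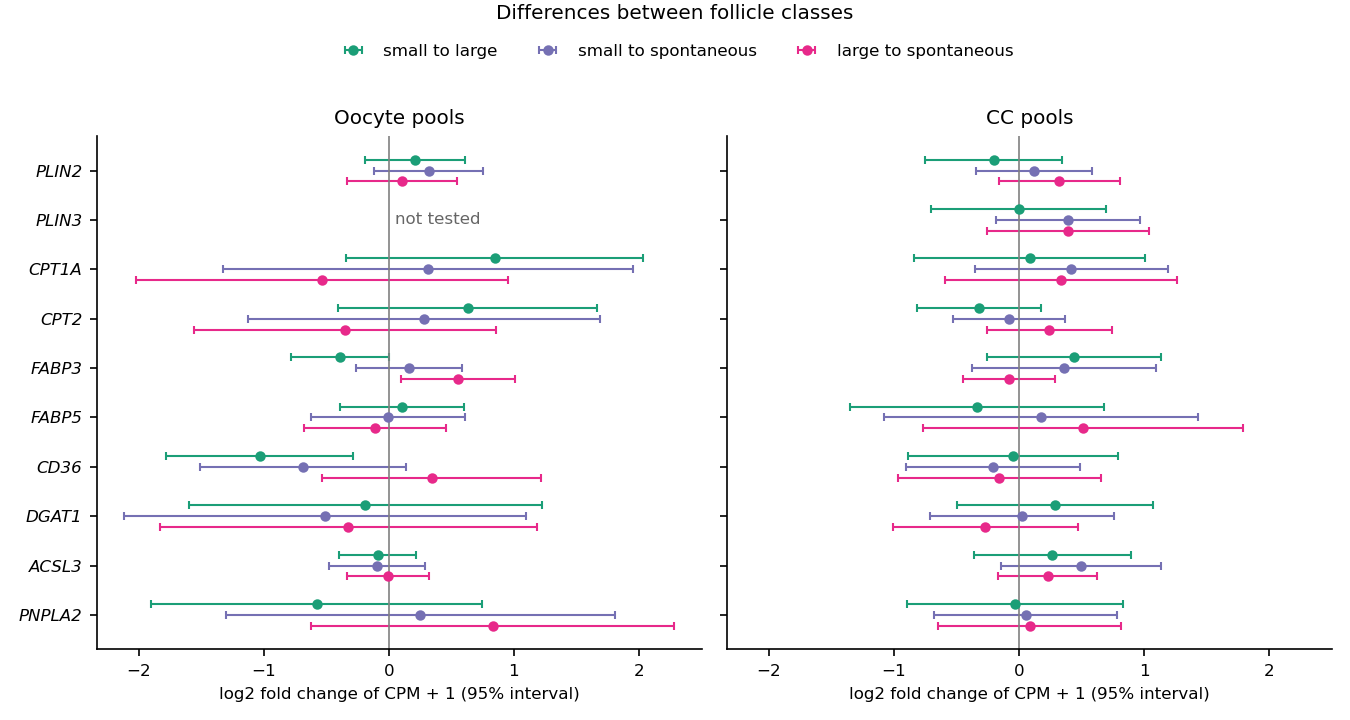
Log2 fold change of CPM + 1 between follicle classes (horizontal axis) for each member, in oocyte pools (left) and CC pools (right), on a shared scale. Points are limma estimates and bars 95% intervals. Of the oocyte intervals, those of CD36 from small to large and FABP3 from large to spontaneous leave out 0, and in CC every interval includes 0.

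The same comparisons were made in CC, where all 10 members were tested. No member was called, and at an unadjusted limma p under 0.05 there were 0 in each comparison. The count tests, edgeR and DESeq2, also called 0. Of all 9712 transcripts, 0.813% were called between small and large, 2.38% between small and spontaneous and 1.66% between large and spontaneous. The median log2 fold change of the members was -0.02, 0.15 and 0.24, beside 0.05, 0.16 and 0.11 over all transcripts, and the members are read against that shift. The shift changed with the scaling. After median-of-ratios scaling, which sets the typical ratio near 0 by design, the median over all transcripts was 0.01 from small and 0.01 from large to spontaneous CC. Without mitochondrially encoded genes it was -0.004 and 0.05. The cause of the shift was not tested.

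CD36 in CC ranged from 39.8 to 146 CPM (median 93.2) in small pools and from 19.6 to 139 CPM (median 86.2) in large pools, and it was 87.6, 83.7, 97.3, 54.6 and 41.2 CPM in spontaneous pools. The classes overlapped over most of their range. From small to large CC the log2 fold change was -0.05 (95% interval -0.89 to 0.79, limma adjusted p = 0.999). Beside it, the oocyte value was -1.03 (95% interval -1.78 to -0.29), and the difference between the cell types in this change was not tested.

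PLIN3 in CC ranged from 5.35 to 8.59 CPM (median 7.05) in small and from 3.84 to 11 CPM (median 7.74) in large pools, and it was 12.5, 9.56, 7.81, 8.71 and 9.70 CPM in spontaneous pools. The spontaneous pools lay at the upper end of the small range or above it. The exact permutation test of means between small and spontaneous CC gave p = 0.017, whereas limma gave 0.39 (SE 0.275, 95% interval -0.19 to 0.97, p = 0.172, adjusted p = 0.746).

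ACSL3 in CC ranged from 12.9 to 66.3 CPM (median 31.1) in small and from 27.4 to 43.2 CPM (median 36.0) in large pools, and it was 42.8, 33.4, 47.9, 41.4 and 45.6 CPM in spontaneous pools. From small to spontaneous CC it differed by 0.50 (95% interval -0.14 to 1.14, limma adjusted p = 0.689). Its highest CC pool, at 66.3 CPM, was in the small group, so the classes overlapped.

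PLIN2 in CC ranged from 138 to 328 CPM (median 246) in small and from 130 to 411 CPM (median 184) in large pools, and it was 201, 278, 279, 247 and 282 CPM in spontaneous pools. From large to spontaneous it differed by 0.32 (95% interval -0.16 to 0.81, limma adjusted p = 0.776). Large replicate 4 held the 411 CPM, and without it the difference was 0.52 and met the threshold (limma adjusted p = 0.515).

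The remaining CC members gave limma p-values from 0.19 to 0.95 in the 3 comparisons. From small to spontaneous CC, CPT1A differed by 0.42 (95% interval -0.35 to 1.19), CPT2 by -0.08 (-0.52 to 0.37), DGAT1 by 0.02 (-0.71 to 0.76) and PNPLA2 by 0.05 (-0.68 to 0.79). FABP3 differed by 0.36 (-0.37 to 1.10), with small replicate 3 at 150 CPM included. FABP5 differed by 0.18 (-1.08 to 1.43), the widest of these intervals, with spontaneous replicate 2 at 43.5 CPM included. Over all settings the FABP3 difference ran from -0.20 to 0.65 between these classes, and from 0.003 to 0.74 between small and large CC.

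The other genes of lipid metabolism were read from 6 lists: fatty-acid uptake and activation, triglyceride synthesis, lipid droplet proteins, lipolysis, beta-oxidation and regulators. Of 92 genes found, 64 could be tested in oocytes and 62 in CC. None was called in oocytes by limma in any comparison, where 2 had an unadjusted p under 0.05 in each. DESeq2 called 3 and edgeR's likelihood ratio test 1 from small to spontaneous, and both called 0 in the other oocyte comparisons.

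The smallest p from small to large oocytes belonged to HADHB, a subunit of the mitochondrial trifunctional protein of beta-oxidation. It ranged from 35.1 to 62.2 CPM (median 38.7) in small and from 12.3 to 31.7 CPM (median 26.5) in large pools, so these classes did not overlap. The log2 fold change was -0.81 (SE 0.334, limma p = 0.022, adjusted p = 0.997), and the exact permutation test gave the smallest p it allows, 0.0022. That permutation p is not adjusted for the choice of HADHB, by its limma p, among 64 tested genes. Without small replicate 3 the limma p was 0.066.

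From small to spontaneous oocytes the smallest p belonged to ETFA, which passes electrons from beta-oxidation to the respiratory chain, with 130 ± 25.5 CPM (SD, n = 6) against 86.2 ± 20.6 CPM (SD, n = 4). The difference was -0.59 (limma adjusted p = 0.987, exact permutation p = 0.029). From large to spontaneous it belonged to PPARD, a nuclear receptor for fatty acids, with 33 ± 8.51 CPM (SD, n = 6) against 67.4 ± 49.6 CPM (SD, n = 4) and a difference of 0.79 (limma adjusted p = 0.968, exact permutation p = 0.105).

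In CC, 0 of 62 were called from small to large, 4 between small and spontaneous and 3 between large and spontaneous, and all 7 calls were higher in spontaneous CC. Of all transcripts called, 221 of 231 and 141 of 161 were higher in spontaneous CC too, so in this fit the direction of the 7 was that of the background. After median-of-ratios scaling the background was more even, with 79 of 126 and 61 of 117 higher in spontaneous CC. The other lipid genes called then numbered 2 in each comparison. None of the 7 calls had an adjusted p under 0.05. As shares these are 6.45% and 4.84% of the tested genes, beside 2.38% and 1.66% of all transcripts, on lists chosen with earlier results of these data known. By list, the 4 were 1 of 10 tested for uptake and activation and 3 of 15 for triglyceride synthesis. The 3 were 1 each of uptake and activation, triglyceride synthesis and beta-oxidation (22 tested). From small to large CC the smallest p belonged to SLC27A1, a fatty-acid transport protein (0.47, limma adjusted p = 0.999).

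SLC27A2, a fatty-acid transport protein that also activates very long-chain fatty acids, was 65.0, 60.1, 143, 203 and 173 CPM in spontaneous CC pools. It ranged from 37.1 to 65.0 CPM (median 49.3) in small and from 36.9 to 75.9 CPM (median 60.0) in large CC pools. In 3 of 5 spontaneous pools it was above every other CC pool, and the other 2 lay inside the small and large ranges. It rose by 1.19 on the log2 scale from small (SE 0.299, limma adjusted p = 0.262) and by 1.05 from large to spontaneous (SE 0.309, adjusted p = 0.567). The second call was lost without spontaneous replicate 3 (0.97), 4 (0.85) or 5 (0.90). In oocytes it reached at most 6.8 CPM.

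ELOVL6, which lengthens palmitate, had 39 ± 22 CPM (SD, n = 6) in small, 46.9 ± 11.5 CPM (SD, n = 6) in large and 79.1 ± 22.3 CPM (SD, n = 5) in spontaneous CC. It was called from small (1.11, SE 0.285, limma adjusted p = 0.291) and from large to spontaneous (0.74, SE 0.211, adjusted p = 0.552). After median-of-ratios scaling the first was 0.95 and no longer called (limma adjusted p = 0.744). That first call was also lost without mitochondrially encoded genes (0.94). It was not made by edgeR's quasi-likelihood (0.80) or likelihood ratio test (0.77), or by DESeq2 (0.76). The second was lost with all 3 classes in one fit (0.74) and without spontaneous replicate 1 (0.58).

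GPAT3 and AGPAT5 act in the first acylation steps of glycerolipid synthesis. AGPAT5 had 37.1 ± 5.04 CPM (SD, n = 6) in small, 47.3 ± 6.77 CPM (SD, n = 6) in large and 53.8 ± 5.83 CPM (SD, n = 5) in spontaneous CC, without overlap between small and spontaneous pools. Its difference between these classes was 0.53 (SE 0.180, limma adjusted p = 0.418), and 0.37, no longer called, after median-of-ratios scaling (adjusted p = 0.822). The call was also lost without mitochondrially encoded genes (0.36) and with the replicate number as a block (0.58). It was not made by edgeR's quasi-likelihood (0.37) or likelihood ratio test (0.38), or by DESeq2 (0.37). Leaving out small replicate 1, 2, 4 or 5, or any single spontaneous replicate, lost it too (0.47 to 0.58).

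GPAT3 differed by 1.45 (SE 0.478, limma adjusted p = 0.407) from small to spontaneous CC, with 31.9 ± 21.8 CPM (SD, n = 6) against 102 ± 103 CPM (SD, n = 5). Spontaneous replicate 4 held 282 CPM, and without it the spontaneous mean was 56.5 ± 22.5 CPM (SD, n = 4) and the difference 0.98, no longer called (adjusted p = 0.727). The call was also lost with no filter, after median-of-ratios scaling (1.30), without mitochondrially encoded genes (1.29) and by DESeq2 (1.52). Leaving out small replicate 2, 3, 4 or 5, or spontaneous replicate 3, lost it too. SLC22A5, the carnitine transporter, was called from large to spontaneous CC at 1.02 (SE 0.331, limma adjusted p = 0.567), with 51.3 ± 16.5 CPM (SD, n = 6) against 115 ± 68.5 CPM (SD, n = 5). It was not called with no filter (1.02), after median-of-ratios scaling (0.92), without mitochondrially encoded genes (0.96) or with the replicate number as a block (0.87). Leaving out large replicate 4 (0.91) or 6 (0.87), or spontaneous replicate 1 (0.97), 4 (1.02) or 5 (0.73), lost the SLC22A5 call too.

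The cumulus and granulosa cell markers had medians of 6688, 5806 and 7565 CPM in small, large and spontaneous CC pools, and the white blood cell markers medians of 130, 73.9 and 146 CPM. Theca cell markers had medians of 560, 738 and 759 CPM. INSL3 (median 360 CPM over all CC pools) and COL1A1 (235 CPM) were the highest of these, followed by DCN (41.4 CPM). ACTA2 (6.36 CPM) and COL3A1 (3.92 CPM) were low, and CYP17A1 had no read in 10 of 17 CC pools and reached at most 0.781 CPM. Spontaneous replicate 4, the pool highest in GPAT3, had the highest sums of theca markers (1326 CPM) and of cumulus and granulosa cell markers (11806 CPM) in CC. The part of these cell types in these differences was not tested.

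**Figure D5:**
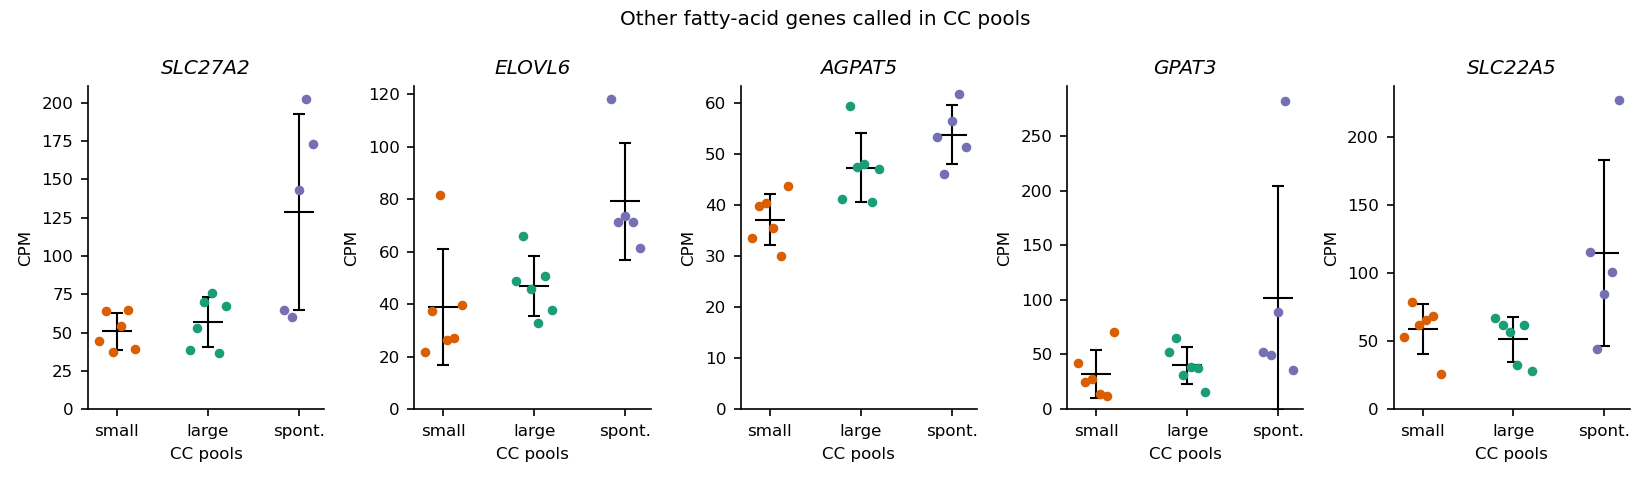
CPM (vertical axes, linear from 0, own scale in each panel) in CC pools of the 5 other lipid genes called in a CC comparison, by follicle class. Points are pools, ticks are class means and bars their SD, cut off at 0. AGPAT5 separates small from spontaneous pools fully, although its call was lost under several other settings. The spontaneous mean of GPAT3 rests on 1 pool at 282 CPM.

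Between the cell types, 74 of the other lipid genes had a level high enough to compare. Of these, 8 were higher in every oocyte pool than in any CC pool and 10 the reverse, or 10.8% and 13.5%, beside 22.9% and 13.4% of all transcripts. By list, none of 12 genes for uptake and activation, 7 for droplet proteins or 22 for beta-oxidation was higher in every oocyte pool, while 3, 1 and 4 of them were higher in every CC pool. Among 18 genes for triglyceride synthesis the counts were 3 and 1, among 7 for lipolysis 2 and 1, and among 8 regulators 3 and 0. These are counts without a test, and each list is small.

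In each list the gene furthest to either side is given. PPARGC1A, a coactivator of mitochondrial and fatty-acid oxidation genes, ranged from 84.7 to 291 CPM in oocytes and reached at most 2.43 CPM in CC. MOGAT1, which acylates monoacylglycerol, ranged from 15.4 to 68.4 CPM in oocytes and reached at most 0.390 CPM in CC, below the level that 3 reads are worth there. DDHD1, a phospholipase, ranged from 401 to 716 CPM in oocytes and from 28.2 to 64.1 CPM in CC. All of these separated fully toward oocytes.

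Toward CC, SLC27A2 had a mean of 75.9 CPM in CC and 1.81 CPM in oocytes. G0S2, an inhibitor of PNPLA2, had 83.7 ± 18.7 CPM (SD, n = 17) in CC and 5.18 ± 5.41 CPM (SD, n = 16) in oocytes, and the droplet protein AUP1 had 33.4 ± 12.2 and 1.27 ± 2.99 CPM. AGPAT5 had 45.6 CPM in CC and 4.29 CPM in oocytes. These genes separated fully as well.

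The furthest genes of the other lists overlapped between cell types. ECI1, an isomerase of beta-oxidation, had 31.7 CPM in CC and 1.79 CPM in oocytes, whereas its relative ECI2 had 4.94 CPM in CC and 21.8 CPM in oocytes. ACSL5 had a mean of 15.0 CPM in oocytes and 2.50 CPM in CC, METTL7A 11.6 and 1.01 CPM, and PPARA 9.16 and 14.7 CPM.

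The beta-oxidation genes that were higher in every CC pool, named after their values were seen, were the acyl-CoA dehydrogenases ACADVL and ACADM, the reductase DECR1 and the peroxisomal enzyme HSD17B4. ACADM had a mean of 155 CPM in CC and 12.7 CPM in oocytes, ACADVL 83.0 and 16.7 CPM, DECR1 18.2 and 0.570 CPM, and HSD17B4 232 and 73.6 CPM. PPARD and PRKAA1, a catalytic subunit of AMP-activated kinase, were the regulators beside PPARGC1A that were higher in every oocyte pool, with 49.6 and 185 CPM in oocytes against 2.89 and 42.6 CPM in CC.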

How the data were processed

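The authors amplified the RNA of each pool to cDNA (Ovation RNA-Seq V2) and sequenced single-end reads. They trimmed these with fqtrim, aligned them to UMD3.1 with Hisat2 and counted them on Ensembl genes with featureCounts. Versions of these tools are not given in the sources used here. The deposited values are CPM, in 1 table for 16 oocyte pools and 1 for 17 CC pools, which were scaled separately. All columns were matched to pools by name (0 left unmatched). The CPM corresponded to whole reads in 100% of cases (tolerance 0.02), which gave back the reads on genes.

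A transcript was tested where 4 or more oocyte pools, or 5 or more CC pools, reached 5 CPM, which kept 10076 in oocytes and 9712 in CC. The main test was limma on log2(CPM + 1), with a variance trend, 2 classes in a fit, no covariates and two-sided. A nominal p of 0.01 or less was a call, with Benjamini-Hochberg adjustment over all tested transcripts. The study used edgeR and DESeq2 on counts, and both were also run here on the reads recovered. The scripts were tested on simulated data. Exact permutation tests compared mean CPM. Oocytes and CC were compared by level only.

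The members and lists were chosen with earlier results of these data known. Named genes are the members, other lipid genes called in a comparison (or with the smallest p where none was called), and in each list the gene with the largest oocyte to CC difference in either direction. Of 98 listed genes 92 were found. Cell markers were read as summed CPM: 9 for oocytes, 10 for cumulus and granulosa cells, 9 for white blood cells, 8 for endothelium and 5 for adipocytes (3 found). Theca and red blood cell markers were read too: they summed to 267 to 1326 CPM and 0 to 4.18 CPM in CC, and to 3.36 to 144 CPM and 0 to 0.568 CPM in oocytes. Same-numbered pools of different classes did not deviate together (correlations -0.19 to 0.22 over 30 pairs), so numbers were not used as pairs. Other settings tried were no filter or a mean CPM of 1 or more, a pseudocount of 0.1, median-of-ratios scaling, CPM without mitochondrially encoded genes, all classes in one fit, a replicate block, edgeR, DESeq2 and each pool left out. Coordinates and sequences are not given, since a genome of the authors' build was not used, and levels are not compared between genes. Software was Python 3.11.15 (pandas 2.3.3, scipy 1.17.1, matplotlib 3.10.9) and R 4.3.3 (DESeq2 1.42.0, edgeR 4.0.16, limma 3.58.1).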

Additional observations from a re-analysis of the deposited data

Results flagged for a closer look

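In 3 of 60 groups of member values (5%) a single pool lay far from the others by Dixon's criterion, which chance meets in about 1 in 20 groups. FABP5 was 43.5 CPM in spontaneous CC replicate 2, where the next pool had 4.54 CPM. CPT1A was 13.9 CPM in small oocyte replicate 4, where the next pool had 5.35 CPM, and without it the small mean was 3.34 ± 1.26 CPM (SD, n = 5). PLIN3 was 1.83 CPM in small oocyte replicate 3, where the next pool had 0.172 CPM. That pool is the oocyte library whose removal the study also tried.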

How the results depend on the processing

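The log2 fold changes of members were recomputed under the alternatives, giving 1255 values over 57 comparisons. Of these, 1137 kept their sign and their side of the threshold, 13 newly met the threshold with the same sign, and 105 had the other sign with the threshold met in neither. None reversed a call. The sign changes fell in 27 comparisons, where the main log2 fold change was at most 0.535 in size.

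From small to large oocytes, 1 member (CD36) in place of 0 was called with no filter, median-of-ratios scaling, all 3 classes in one fit, edgeR's quasi-likelihood or likelihood ratio test, DESeq2, and both tools together. With single pools left out the count of members was 0 to 1 there, 0 to 1 from large to spontaneous oocytes (FABP3) and 0 to 1 from large to spontaneous CC (PLIN2).

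Other lipid genes called from small to spontaneous oocytes numbered 1 by the likelihood ratio test and 3 by DESeq2 in place of 0, and 0 to 1 with single pools left out, as from large to spontaneous. From small to spontaneous CC they fell from 4 to 2 with median-of-ratios scaling, without mitochondrially encoded genes, by DESeq2 and by both tools together, and ranged from 2 to 5 with single pools left out (2 without small replicate 5). From large to spontaneous CC they rose from 3 to 5 by the likelihood ratio test, and ranged from 1 to 4 (1 without spontaneous replicate 1, 4 or 5). The causes were not tested. SLC27A2 met the threshold from small to spontaneous CC in all 23 settings (0.99 to 1.42), but from large to spontaneous CC its call was lost without spontaneous replicate 3, 4 or 5 (0.85 to 0.97).

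With the replicate number as a block, 1 member was called from small to spontaneous CC, ACSL3 (0.72, limma adjusted p = 0.367), and 0 in each other comparison. Other lipid genes called under the block were 4 from small and 2 from large to spontaneous CC and 0 elsewhere. The pools share only a number, and in none of the comparisons did every pool correlate best with its own number.

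CC pools hold fewer reads than oocyte pools, so at a like level counting error is larger there: for DGAT1, at 5.68 CPM in CC and 5.66 CPM in oocytes, it was 21.3% against 11.9%.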
